A study of Homo sapiens with 9 samples.

Results

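Calcineurin is the calcium-dependent phosphatase of the cell, and 10 genes of its pathway were followed here in MCF10A, an established non-tumorigenic human breast epithelial cell line. They are the calcineurin regulators RCAN1, RCAN2 and RCAN3, the catalytic subunits PPP3CA, PPP3CB and PPP3CC, the regulatory subunit PPP3R1, and the transcription factors NFATC1, NFATC3 and NFAT5. They were taken by gene symbol from a table of 56609 symbols, and each of the 10 had 1 entry. RNA was sequenced in 9 samples, 3 in each of 3 groups. The control group was untreated. The high calcium group received 10 mM calcium together with ionomycin, a calcium ionophore (the labels give 1 mM, printed here as labelled), for 16 h. The TGFb3 group received 10 nM transforming growth factor beta 3 for 16 h. Calcium and ionomycin were always given together, so their effects cannot be told apart. All samples came from 1 cell line, and the labels do not say that the replicates were separate cultures, so every p-value here reflects the variation among these 9 libraries and no more, and that variation may be technical. The growth medium of all groups held horse serum, EGF, hydrocortisone, cholera toxin and insulin.

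When cytosolic calcium rises, calmodulin binds calcium and switches on calcineurin, a pairing of a catalytic and a regulatory subunit. Calcineurin removes phosphate from NFATC factors, which then move into the nucleus, while kinases such as GSK3 and DYRK send them back out. RCAN proteins bind calcineurin and restrain it, and a short form of RCAN1, transcribed from an internal start, is a known NFAT target and a common readout of calcineurin activity. NFAT5 shares the DNA-binding domain of the family but has no calcineurin docking region and is best known for the response to osmotic stress.

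The start sites of the RCAN genes are shown first because the results turn on these genes. RefSeq start-site windows (GRCh38.p14, 250 bases before to 50 after the start, 300 bases in all) were found for 6 of the 10 genes, 16 windows in total. PPP3CA, PPP3CB, PPP3CC and NFAT5 had no window. The windows were searched on both strands for the NFAT core GGAAA, the AP-1 motif TGANTCA and the cyclic AMP response element TGACGTCA. No match overlapped another in the windows printed here. Capitals mark the NFAT core or its reverse complement. The first sequence is the internal start of RCAN1, and the second is its most upstream RefSeq start. The third is the most upstream RefSeq start of RCAN3, a gene that rose with TGFb3. The GENCODE annotation (release 29) begins RCAN3 further upstream, at base 24502351. None of its RCAN3 transcripts holds the last 50 bases of this window.
RCAN1 start 4 (chr21:34526773-34527072, minus strand): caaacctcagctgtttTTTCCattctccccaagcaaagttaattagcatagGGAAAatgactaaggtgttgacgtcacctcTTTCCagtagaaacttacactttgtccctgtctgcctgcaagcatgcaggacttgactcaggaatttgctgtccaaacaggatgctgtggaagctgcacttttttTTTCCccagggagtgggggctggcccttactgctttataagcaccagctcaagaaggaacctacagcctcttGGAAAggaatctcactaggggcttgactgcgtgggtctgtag
RCAN1 start 1 (chr21:34615064-34615363, minus strand): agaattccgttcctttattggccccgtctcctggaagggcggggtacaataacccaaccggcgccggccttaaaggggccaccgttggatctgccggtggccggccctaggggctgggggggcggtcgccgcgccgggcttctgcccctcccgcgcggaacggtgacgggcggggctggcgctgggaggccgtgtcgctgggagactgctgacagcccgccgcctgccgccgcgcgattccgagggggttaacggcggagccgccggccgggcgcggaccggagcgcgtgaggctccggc
RCAN3 start 1 (chr1:24502586-24502885, plus strand): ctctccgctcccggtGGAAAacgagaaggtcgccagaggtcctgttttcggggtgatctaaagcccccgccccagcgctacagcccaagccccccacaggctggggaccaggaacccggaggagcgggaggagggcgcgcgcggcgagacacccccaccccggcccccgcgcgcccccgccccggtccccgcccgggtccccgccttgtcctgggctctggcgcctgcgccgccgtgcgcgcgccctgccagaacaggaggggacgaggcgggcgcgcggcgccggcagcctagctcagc

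The internal RCAN1 window held 5 NFAT cores, 2 on the printed strand and 3 on the other, with 1 AP-1 motif and 1 cyclic AMP response element. Of all 35116 RefSeq windows of this length, 61.2% held at least 1 NFAT core and 0.74% held 5 or more. At least 1 AP-1 motif was in 7.71% of windows and at least 1 cyclic AMP response element in 1.85%. These shares were not matched for base composition. G and C made up 48% of the internal RCAN1 window, and 74%, 78.3% and 46.3% of RCAN1 starts 1, 2 and 3. The 3 most upstream RCAN1 windows held none of these motifs, and starts 5 and 6 held 1 NFAT core each. An AP-1 motif was also in start 5 of RCAN1, start 3 of RCAN2 and start 3 of RCAN3. Among the RCAN2 windows the second held 2 NFAT cores and the others held 0, and each of the 3 RCAN3 windows held 1. These matches are letters in a window, not measured sites. The table gives 1 value per gene, so the RNA from the internal start of RCAN1 cannot be told apart from that of its other starts.

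**Figure D1:**
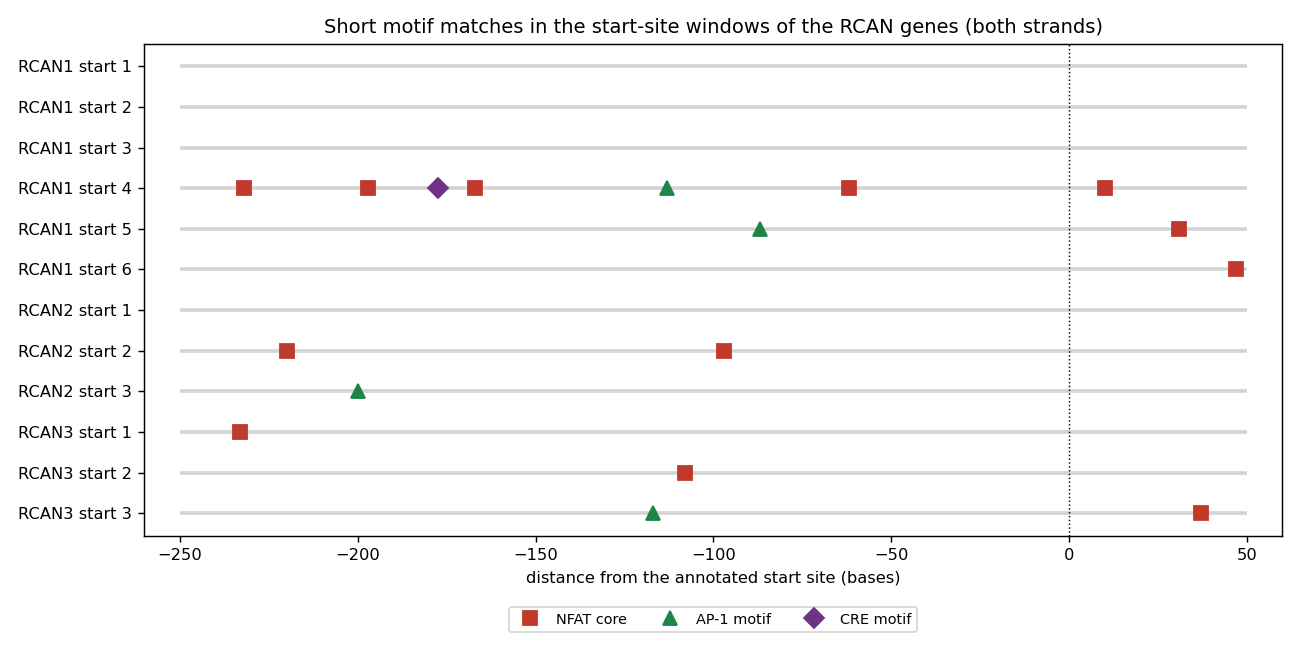
Motif matches on either strand in the 12 RefSeq start-site windows of RCAN1, RCAN2 and RCAN3, by distance in bases from the annotated start (position 0), with windows numbered as in the text. Start 4 of RCAN1 carries 5 NFAT cores with 1 AP-1 motif and 1 cyclic AMP response element, and no other window shown has more than 2 NFAT cores. Start 5 of RCAN1, start 3 of RCAN2 and start 3 of RCAN3 also carry an AP-1 motif.

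Values are transcripts per 1000000 (TPM), a length-normalised share of each library, so levels of different genes may be set side by side. The total is 1000000 in every sample, which leaves the sequencing depth unknown. Differences are of log2(TPM + 1), with their standard error (SE) from a limma fit over the 13968 symbols averaging 1 TPM or more, and n = 3 per group throughout. A gene is called at a limma adjusted p under 0.05 (Benjamini-Hochberg, two-sided). RNA of the mitochondrial genome took 21.7% to 23.3% of TPM in untreated cells, 11.1% to 11.9% in high calcium and 22.2% to 23.3% in TGFb3, and tested genes as a whole had a median log2 difference of 0.22 in high calcium against control. Of the calls in that comparison 73% were higher, but 50.2% after median ratio rescaling, 47.2% after quantile normalisation and 55.1% with mitochondrial genes left out. Between high calcium and TGFb3 these shares were 75.7%, 49.7%, 51.1% and 59.5%. In high calcium against control, median ratio rescaling moved the median of 0.22 to 0.0045, and values of single genes moved with it. For the 10 genes in that comparison, the values under the 3 other scalings (median ratio, quantile, mitochondrial genes left out, in that order) are given where they differ by more than 1.5 times or change a call. MALAT1, a nuclear RNA, was at 158 ± 44.8 TPM without treatment, 424 ± 32.1 TPM with high calcium and 204 ± 12.4 TPM with TGFb3. Symbols with at least 1 TPM numbered about 13390, 14470 and 13580 on average in the same order. Beyond the scalings, the part of these shifts in the results was not tested.

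The cells carried the RNA of basal breast epithelium, with all 10 markers of that list (among them KRT5, KRT14 and TP63) at or above 1 TPM on average. Their summed level was 4000 to 4237 TPM without treatment, 7639 to 7928 TPM with high calcium and 6506 to 7677 TPM with TGFb3. PTPRC and the CD3 genes, which define leukocytes and T cells where NFAT is best studied, were listed at 0 in all 9 samples. Of the 10 leukocyte markers 8 were at 0, and the summed level of the list was 1.36 to 3 TPM in untreated cells, 14 to 37.6 TPM in high calcium and 8.68 to 13.8 TPM in TGFb3. CD68 was the only one of the 10 to reach 1 TPM on average. The endothelial list summed to 4.54 to 5.5, 11.7 to 12.6 and 1.67 to 2.51 TPM. In that list KDR and TEK reached 1 TPM on average, and CDH5 and CLDN5 were at 0 throughout. None of 8 muscle markers reached 1 TPM on average. Whether these markers bear on the results was not tested. In bulk RNA, fewer cells of a kind and less RNA per cell cannot be told apart.

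In untreated cells PPP3R1 was the most abundant of the 10 genes at 92.4 ± 4.86 TPM (SD, n = 3), followed by PPP3CB and PPP3CA. NFATC3, PPP3CC, RCAN3, RCAN1 and NFAT5 lay between 24.75 and 13.2 TPM, and the samples of NFATC3 and PPP3CC overlapped, as did those of RCAN3 and RCAN1. NFATC1 at 0.469 ± 0.0422 TPM and RCAN2 at 0.2 ± 0.0661 TPM were the lowest. High calcium put RCAN1 first, above PPP3R1, with no overlap of the samples. TGFb3 put PPP3CA above PPP3CB and RCAN3 above PPP3CC, again without overlap.

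**Figure D2:**
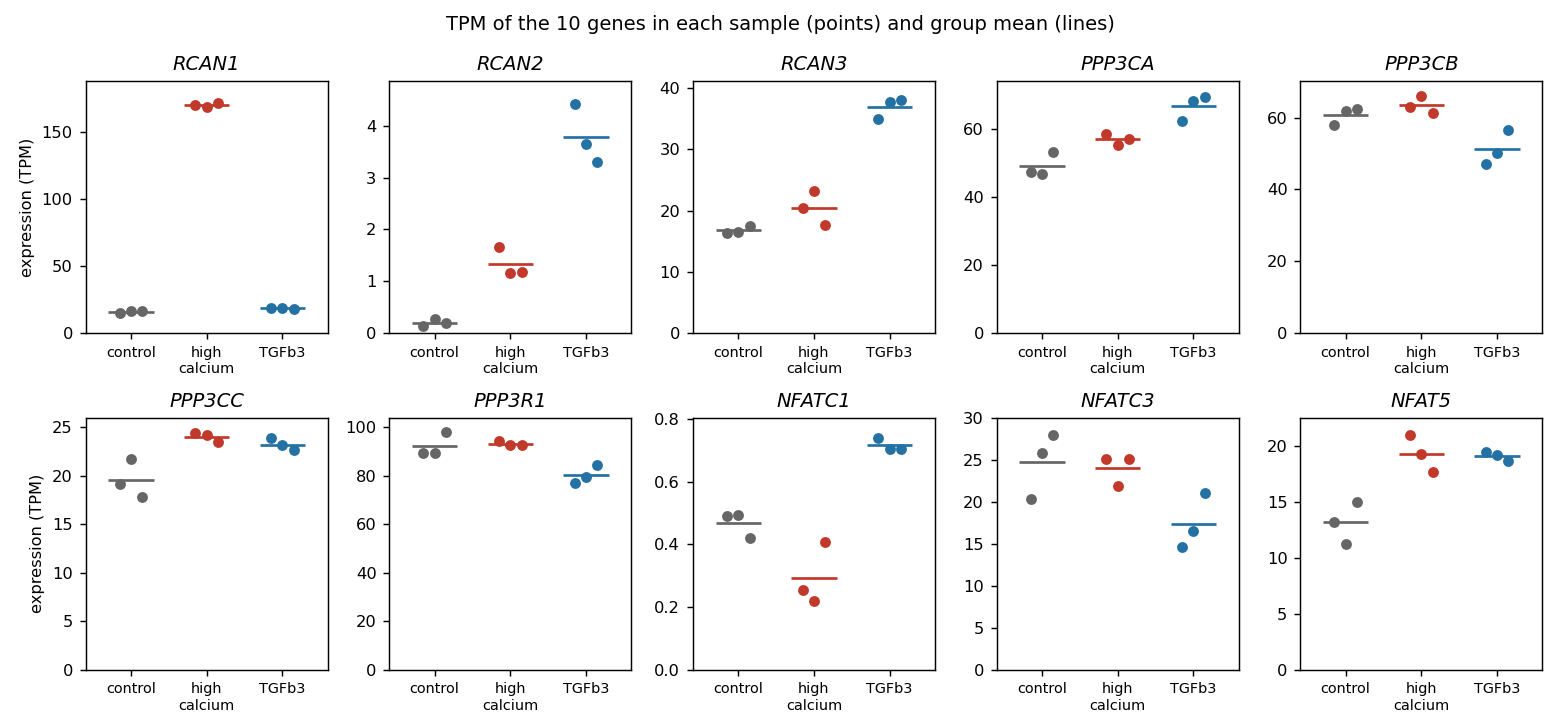
TPM of each of the 10 genes in every sample (points, 3 per group) with the group mean (lines); each panel has its own linear axis from 0. RCAN1 stands at 168.6 to 171.1 TPM in high calcium against 15.2 to 16.6 TPM in untreated cells, while RCAN2 and RCAN3 are highest in TGFb3.

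Of the 10 genes 9 passed the filter on low values, and NFATC1 did not. RCAN2 passed only through the treated samples, so its being tested at all depended on a difference. It is among the genes counted as called in each comparison below. In high calcium against control 6 of the 9 were called higher and 0 lower, where 63.1% of all tested genes were called, 46.1% higher and 17% lower. Rescaled by median ratios, the same 9 split into 3 higher, 2 lower and 4 not called. The median log2 difference of the 9 was 0.26, beside 0.22 over all tested genes. At an unadjusted p under 0.05 none was lower either. In TGFb3 against control 6 were called higher and 3 lower, with 59.6% of all genes called, 26.5% higher and 33.1% lower, and the median was 0.24 beside -0.06 over all genes. In high calcium against TGFb3 4 were called higher and 3 lower, with 66.5% of all genes called, 50.4% higher and 16.2% lower, and the median was 0.05 beside 0.27. The 4 were RCAN1, PPP3CB, PPP3R1 and NFATC3, and the 3 were RCAN2, RCAN3 and PPP3CA. After median ratio rescaling that comparison gave 1 higher and 5 lower. Among the 4, RCAN1 alone was called higher under each of the 3 other scalings. Both comparisons with the control use the same 3 control samples. Samples of the groups compared did not overlap for 69% of all tested genes in high calcium against control (49.4% higher, 19.6% lower), 63.8% in TGFb3 against control (28.4% higher, 35.4% lower) and 71.2% in high calcium against TGFb3 (53.1% higher, 18.1% lower), so a lack of overlap was common in these data.

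**Figure D3:**
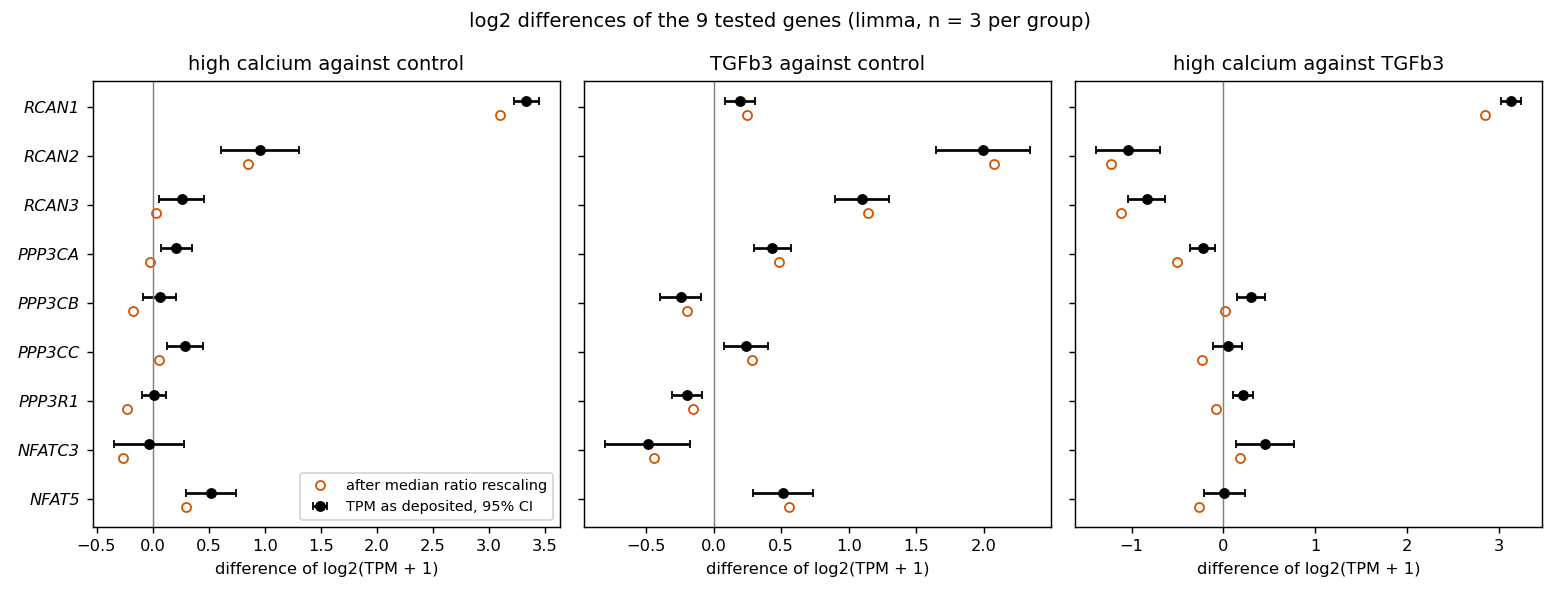
Differences of log2(TPM + 1) of the 9 tested genes in the 3 comparisons, from TPM as deposited (filled, with the 95% confidence interval of the limma fit) and after median ratio rescaling (open); the axes differ between panels. RCAN1 lies at 3.33 in high calcium against control and 0.20 in TGFb3 against control, and the subunits in high calcium lie between 0.01 and 0.29 as deposited and between -0.22 and 0.06 after rescaling.

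RCAN1, the inducible feedback regulator of calcineurin (chr21:34513142-34615142), measured 15.2, 16.6 and 16.1 TPM without treatment, 170.3, 168.6 and 171.1 TPM with high calcium and 18.8, 19 and 17.7 TPM with TGFb3. The 3 high calcium samples stood far above the other 6, and the TGFb3 samples stood just above the controls without overlap. High calcium raised the mean 10.6-fold, a log2 difference of 3.33 ± 0.05 (SE, limma adjusted p = 6.6e-11), which placed RCAN1 at 15 among 13968 genes ordered from the largest rise. TGFb3 gave a log2 difference of 0.20 ± 0.05 (limma adjusted p = 0.0059). High calcium exceeded TGFb3 by 3.14 ± 0.05 (limma adjusted p = 4e-11). RCAN1 overlaps no other annotated gene.

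The 5 named genes whose profile over the 9 samples lay closest to that of RCAN1 were TNFRSF9, HSPA5, PRSS23, FAM129A and MTRNR2L12, out of 9490 genes with at least 10 TPM in their highest group. Likeness was the root mean square distance between log2(TPM + 1) profiles centred on their means, from 0.107 for TNFRSF9 to 0.2 for MTRNR2L12. Of these genes all but HSPA5 averaged 10 TPM or more only in high calcium, so the filter in part selected for this profile. TNFRSF9 and FAM129A averaged under 1 TPM in both other groups. At such low levels the distance also depends on the 1 added to TPM, and no other pseudocount was tried for it. TNFRSF9, a receptor of the tumour necrosis factor family, went from 0.218 ± 0.0526 TPM in untreated cells to 10.25 ± 0.294 TPM in high calcium and was at 0.452 ± 0.147 TPM in TGFb3. HSPA5, an endoplasmic reticulum chaperone also called BiP, rose by log2 3.31 in high calcium and by 0.44 in TGFb3. PRSS23, a serine protease, and FAM129A rose by log2 3.21 and 3.46 in high calcium, and their log2 differences in TGFb3 were -0.07 and -0.04. MTRNR2L12 is a nuclear copy of mitochondrial ribosomal RNA, so its value is uncertain. RCAN3 lay at a distance of 1.7 and NFAT5 at 1.41.

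RCAN2, a relative of RCAN1 that is best known from brain and heart (chr6:46220736-46491972), measured 0.133, 0.265 and 0.2 TPM without treatment, 1.66, 1.15 and 1.19 TPM with high calcium and 4.42, 3.65 and 3.3 TPM with TGFb3. The 3 groups did not overlap, with TGFb3 highest and the controls lowest. The log2 difference was 0.95 ± 0.16 in high calcium (limma adjusted p = 0.00039) and 1.99 ± 0.16 in TGFb3 (limma adjusted p = 2e-06). High calcium was lower than TGFb3 by a log2 difference of -1.04 ± 0.16 (limma adjusted p = 2e-04). RCAN2 passed the filter on low values only through the treated samples, so these p-values are not independent of the differences they test. At so low a level the size depends on the pseudocount. With 0.1 added instead of 1, the log2 difference was 2.27 in high calcium and 3.71 in TGFb3, and with 5 added it was 0.28 and 0.76. With quantile normalisation the high calcium value was 0.61. The ratio of mean TPM to untreated cells was 6.68 in high calcium and 19 in TGFb3, against an untreated mean of 0.2 TPM. The summed level of 8 neuronal markers moved in the same order, from 32.8 to 36.5 TPM in untreated cells to 66.8 to 75.4 TPM in high calcium and 117 to 152 TPM in TGFb3. That sum was carried by TUBB3, MAP2 and SYT1, while RBFOX3, NEFL and ELAVL4 were listed at 0 in all samples. Their part in the RCAN2 values was not tested.

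RCAN3, the third member of the family (chr1:24502351-24541040), measured 16.3, 16.5 and 17.5 TPM without treatment, 20.45, 23.2 and 17.6 TPM with high calcium and 35, 37.7 and 38.1 TPM with TGFb3. TGFb3 stood clear of both other groups, and the lowest high calcium sample was next to the highest control. TGFb3 raised RCAN3 2.2-fold, a log2 difference of 1.09 ± 0.09 (limma adjusted p = 3e-06). High calcium gave 0.26 ± 0.09 (limma adjusted p = 0.027, range 0.0032 to 0.76 over 20 alternatives). That call was lost in 10 of the alternatives, among them the removal of control 1 (adjusted p = 0.074), control 2 (0.07), high calcium 1 (0.065) or high calcium 2 (0.1), and under all 3 other scalings, where the value was 0.03, 0.04 and 0.08. RCAN3 was lower in high calcium than in TGFb3 by a log2 difference of -0.83 ± 0.09 (limma adjusted p = 1.9e-05).

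The make-up of the RCAN family within a library is the same under any common scaling of that library. In untreated cells RCAN1 held 48.5 ± 1.16% of the family's summed TPM and RCAN3 held 50.9 ± 1.31%. In high calcium RCAN1 held 88.5%, 87.4% and 90.1%, and in TGFb3 it held 32.3%, 31.4% and 29.9%. RCAN2 held 5.59% to 7.59% in TGFb3 and less than 1% in the other samples. The 3 groups were apart in the RCAN1 share, with high calcium highest and TGFb3 lowest. Summed over the family, RCAN TPM went from 32.9 ± 1.16 in untreated cells to 192 ± 1.66 in high calcium and 59.2 ± 1.07 in TGFb3.

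PPP3CA, the alpha catalytic subunit (chr4:101023409-101348278), measured 47.3, 46.6 and 53 TPM without treatment, 58.4, 55.05 and 57 TPM with high calcium and 62.2, 68.1 and 69.3 TPM with TGFb3. The groups did not overlap, with TGFb3 highest. TGFb3 gave a log2 difference of 0.43 ± 0.06 (limma adjusted p = 0.00016). High calcium gave 0.21 ± 0.06 (limma adjusted p = 0.012, range 0.003 to 0.82), and this call was lost under the 3 other scalings, where the value was -0.02, 0.03 and 0.02, and without control 2 (adjusted p = 0.05). High calcium was lower than TGFb3 by a log2 difference of -0.22 ± 0.06 (limma adjusted p = 0.0089). The lincRNA FLJ20021, at the start of PPP3CA on the other strand, was at 1.25 to 5.1 TPM.

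PPP3CB, the beta catalytic subunit (chr10:73436428-73496024), moved the other way with TGFb3. It measured 58, 61.8 and 62.3 TPM without treatment, 62.9, 65.9 and 61.4 TPM with high calcium and 47, 50.2 and 56.7 TPM with TGFb3. All TGFb3 samples were below all others, and control and high calcium samples overlapped. The log2 difference was -0.24 ± 0.07 in TGFb3 (limma adjusted p = 0.01). It was 0.06 in high calcium with a 95% interval of -0.09 to 0.21 (limma adjusted p = 0.45, range 0.035 to 0.76). Under the 3 other scalings it was -0.17, -0.12 and -0.13, and with the first of them PPP3CB was called lower (adjusted p = 0.035). PPP3CB overlaps at its start with PPP3CB-AS1 on the other strand, which was at 5.33 to 11.1 TPM, and the strand of the reads is not given in the sources used here.

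PPP3CC, the gamma catalytic subunit (chr8:22440819-22541142), measured 19.1, 21.7 and 17.8 TPM without treatment, 24.4, 24.2 and 23.5 TPM with high calcium and 23.9, 23.1 and 22.6 TPM with TGFb3. Both treated groups stood above the controls and overlapped each other. The log2 difference was 0.29 ± 0.07 in high calcium (limma adjusted p = 0.0054, range 0.0011 to 0.54) and 0.24 ± 0.07 in TGFb3 (limma adjusted p = 0.015). None of the 3 other scalings kept the high calcium call, their log2 differences being 0.06, 0.07 and 0.10.

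PPP3R1, the calcium-binding regulatory subunit (chr2:68178857-68256237), measured 89.5, 89.6 and 98 TPM without treatment, 94.2, 92.5 and 92.7 TPM with high calcium and 77.2, 79.4 and 84.5 TPM with TGFb3. TGFb3 samples were the lowest, and the controls spread on both sides of high calcium. The log2 difference was -0.20 ± 0.05 in TGFb3 (limma adjusted p = 0.0057). In high calcium it was 0.01 with a 95% interval of -0.10 to 0.12 (limma adjusted p = 0.83), yet with each of the 3 other scalings PPP3R1 was called lower, at -0.22, -0.16 and -0.18 (adjusted p = 0.0013, 0.014 and 0.013). The protein-coding entry AC017083.3, which spans all of PPP3R1 on the same strand, was at no more than 0.38 TPM.

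Within a library, PPP3CA held 37.9 ± 2.01% of the catalytic TPM in untreated cells, 39.4 ± 1.26% in high calcium and 47.2 ± 0.859% in TGFb3, where the TGFb3 samples stood apart from all others. PPP3CB held 47 ± 0.469% in untreated cells, 43.9 ± 1.27% in high calcium and 36.3 ± 1.59% in TGFb3, without overlap of the 3 groups. The ratio of PPP3CA to PPP3CB was 0.817, 0.754 and 0.851 in untreated cells and 1.32, 1.36 and 1.22 in TGFb3. Per unit of catalytic TPM there was 0.715 ± 0.0241 of PPP3R1 in untreated cells, 0.646 ± 0.00817 in high calcium and 0.57 ± 0.0097 in TGFb3, again without overlap. The summed RCAN TPM per catalytic TPM was 0.254, 0.256 and 0.254 in untreated cells, 1.32, 1.33 and 1.34 in high calcium, and 0.437, 0.426 and 0.398 in TGFb3. So RCAN RNA exceeded catalytic subunit RNA in the high calcium samples alone among these 3 groups.

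**Figure D4:**
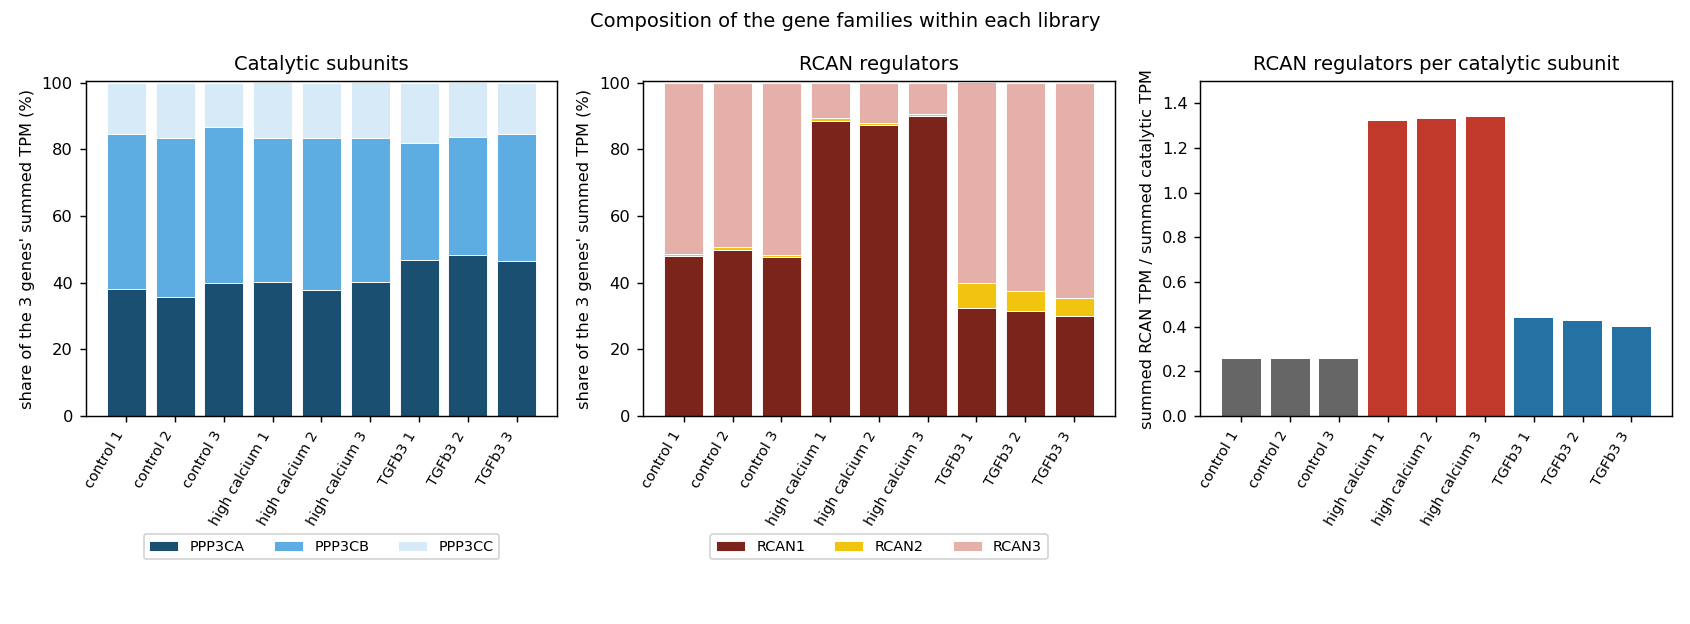
Share of each catalytic subunit (left) and each RCAN gene (middle) in its family's summed TPM, and summed RCAN TPM per summed catalytic TPM (right), with 1 bar per sample. RCAN1 fills 87.4% to 90.1% of the RCAN bar in high calcium, and PPP3CA overtakes PPP3CB in the TGFb3 samples.

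NFATC3 was the most abundant of the calcineurin-regulated NFAT genes (chr16:68084751-68229259), holding 97.5 ± 0.252% of the summed TPM of NFATC1 to NFATC4 in untreated cells and 92.1 ± 2.3% in TGFb3. It measured 20.4, 25.9 and 28 TPM without treatment, 25.1, 21.9 and 25.1 TPM with high calcium and 14.6, 16.6 and 21 TPM with TGFb3. The highest TGFb3 sample lay above the lowest control. NFATC3 was called lower in TGFb3, with a log2 difference of -0.49 ± 0.14 (limma adjusted p = 0.013, range 0.003 to 0.051). The call was lost without control 3 (adjusted p = 0.051) and without TGFb3 1 (adjusted p = 0.051). In high calcium the log2 difference was -0.03 with a 95% interval of -0.35 to 0.28 (limma adjusted p = 0.86). Under the 3 other scalings it was -0.26, -0.24 and -0.22, and none was called. The entry AC020978.6 within NFATC3, on the same strand, ranged from 0.725 to 9.95 TPM over the samples, and ESRP2, whose end overlaps that of NFATC3 on the other strand, ranged from 20.1 to 40.5 TPM. Reads could have been split among them.

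NFATC1, known for its autoregulated short form in lymphocytes and osteoclasts (chr18:79395856-79529325), was below the filter at 0.491, 0.494 and 0.42 TPM in untreated cells, 0.255, 0.22 and 0.407 TPM in high calcium and 0.74, 0.705 and 0.705 TPM in TGFb3. The groups did not overlap, with TGFb3 highest and high calcium lowest. Fitted with no filter on low values, its log2 difference was -0.19 in high calcium (limma adjusted p = 0.081) and 0.23 in TGFb3 (limma adjusted p = 0.044). NFATC2 was at 0 to 0.0531 TPM in untreated cells, 0.0679 to 0.148 TPM in high calcium and 0.261 to 0.467 TPM in TGFb3. NFATC4 was at 0.0507 to 0.26 TPM in untreated cells, 0.525 to 0.578 TPM in high calcium and 0.286 to 0.478 TPM in TGFb3. PPP3R2, the testis form of the regulatory subunit, was listed at 0 in all samples.

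NFAT5, the osmotic-stress member of the family (chr16:69565094-69704666), measured 13.3, 11.3 and 15.1 TPM without treatment, 21, 19.3 and 17.7 TPM with high calcium and 19.5, 19.2 and 18.7 TPM with TGFb3. Both treated groups stood above the controls and overlapped each other. NFAT5 rose by a log2 difference of 0.52 ± 0.10 in high calcium (limma adjusted p = 0.0011) and 0.51 ± 0.10 in TGFb3 (limma adjusted p = 0.0013). The high calcium value was 0.30, 0.29 and 0.34 under the 3 other scalings and was called under each. High calcium against TGFb3 gave 0.01 with a 95% interval of -0.21 to 0.23 (limma adjusted p = 0.93, range 0.033 to 0.98). After median ratio rescaling and after quantile normalisation NFAT5 was called lower in high calcium than in TGFb3, with log2 differences of -0.26 and -0.24. The entry AC012321.1 at the end of NFAT5 ranged from 0.07 to 14 TPM, and reads could have been split between them.

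Other genes of the pathway were counted in lists, shown in the plot of the other pathway genes. Their counts are to be read against all tested genes, of which 46.1% were called higher and 17% lower in high calcium (median 0.22) and 26.5% and 33.1% in TGFb3 (median -0.06). Of 8 calmodulin, inhibitor, scaffold and immunophilin genes 6 were tested, with 3 higher, 1 lower and 2 not called in high calcium, and 1 higher, 2 lower and 3 not called in TGFb3. The medians were 0.12 and -0.07, and the first was -0.12 after median ratio rescaling. CALM3, a calmodulin gene, rose from 327.5 ± 8.55 to 569 ± 11.7 TPM in high calcium (log2 0.80 ± 0.04). CALM2, a more abundant calmodulin gene, was at 746 ± 18.9 TPM in untreated cells and 797 ± 57.8 TPM in high calcium. That difference was not called (log2 0.09, limma adjusted p = 0.18). In TGFb3 CALM2 was called lower, at 598 ± 28.3 TPM (log2 -0.32 ± 0.06). CHP1, a calcineurin-like protein that inhibits the enzyme, rose by log2 0.75 ± 0.04 in high calcium. PPIA, the cyclophilin bound by cyclosporin, fell by 0.21 on the log2 scale in high calcium and by 0.40 in TGFb3.

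Of 14 NFAT kinases, transport factors and partners 13 were tested, with 7 higher, 4 lower and 2 not called in high calcium, a median log2 difference of 0.28, and 5 higher, 3 lower and 5 not called in TGFb3, a median of 0.06. After median ratio rescaling high calcium had 6 higher and 5 lower, with a median of 0.05. The 4 called lower as deposited were XPO1, KPNB1, HOMER2 and NFATC2IP, with log2 differences of -0.33, -0.28, -0.14 and -0.41. In TGFb3 XPO1 and KPNB1 were also called lower (-0.49 and -0.50), HOMER2 was called higher (0.25) and NFATC2IP was not called. GSK3B, a kinase that drives NFAT export, rose from 39.3 ± 2.93 to 64.3 ± 0.68 TPM in high calcium and to 56.3 ± 1.06 TPM in TGFb3. CSNK1A1, a casein kinase that keeps NFAT phosphorylated, rose by log2 0.60 ± 0.06 in high calcium. LRRK2, a kinase that restrains NFAT, rose by 0.98 ± 0.12 in high calcium and fell by 0.54 in TGFb3. It averaged only 1.7 TPM without treatment, 4.3 TPM with high calcium and 0.87 TPM with TGFb3. Over 19 alternatives its log2 difference ranged from 0.48 to 1.3 in high calcium and from -0.90 to -0.19 in TGFb3. The calls were kept in all of them. HOMER3, a scaffold that competes with calcineurin for NFAT, rose from 11.1 ± 1.8 to 17 ± 0.835 TPM in high calcium, a call lost after quantile normalisation (limma adjusted p = 0.051, range 0.0013 to 0.051 over the alternatives), and to 30.35 ± 3.8 TPM in TGFb3 (log2 1.37 ± 0.12).

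Of 11 other calcineurin substrates 9 were tested, with 5 higher, 0 lower and 4 not called in high calcium, a median of 0.56, and 4 higher, 1 lower and 4 not called in TGFb3, a median of 0.12. The high calcium median was 0.34 after median ratio rescaling, with 4 higher and 1 lower, and 0.17 after quantile normalisation. MEF2A, a transcription factor activated by calcineurin in muscle and neurons, rose by log2 0.88 ± 0.07 in high calcium and 0.70 ± 0.07 in TGFb3, and MEF2D by 0.58 and 0.44. TFEB, a lysosomal regulator that calcineurin dephosphorylates, rose from 3.13 ± 0.0752 TPM to 5.67 ± 0.415 TPM in high calcium and 5.21 ± 0.3 TPM in TGFb3.

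**Figure D5:**
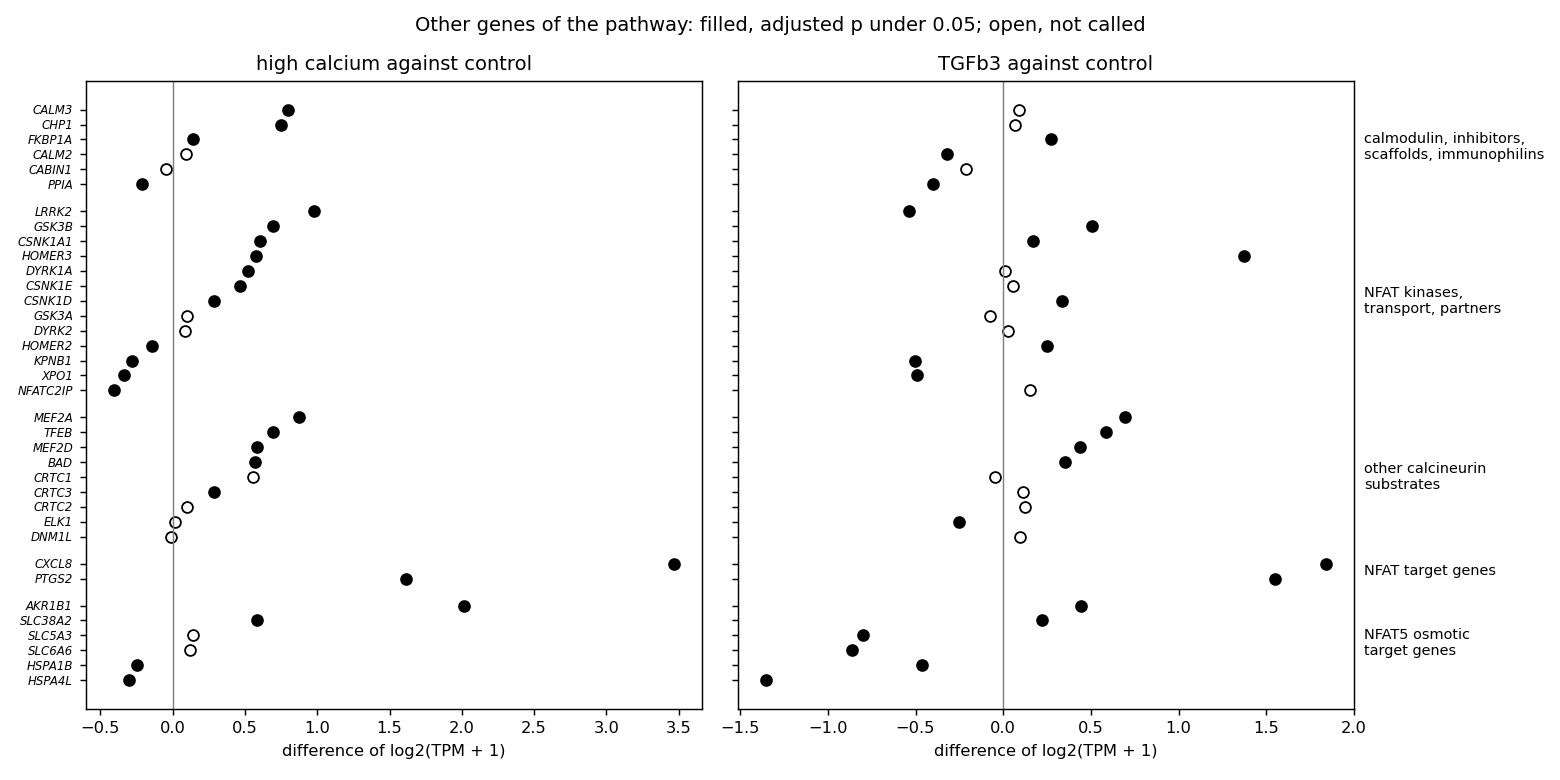
Differences of log2(TPM + 1) of the tested genes of 5 pathway lists against the control, in high calcium (left) and TGFb3 (right), filled where the limma adjusted p is under 0.05; the axes differ. CXCL8 lies at 3.47 and 1.84, AKR1B1 at 2.02 and 0.44, and HSPA4L at -0.30 and -1.35.

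Of 16 NFAT target genes known mostly from activated lymphocytes, 2 passed the filter, and both rose in both treatments. The cytokine genes IL2, IL3, IL4, IL13 and IFNG and the ligands CD40LG and FASLG were listed at 0 in all 9 samples. CXCL8, a neutrophil chemokine that many other factors also drive, rose by log2 3.47 ± 0.08 in high calcium and 1.84 ± 0.08 in TGFb3. PTGS2, the inducible cyclooxygenase, measured 1.54, 1.47 and 1.74 TPM without treatment, 6.35, 6.75 and 7.59 TPM with high calcium and 7.55, 7.04 and 5.31 TPM with TGFb3, a log2 difference of 1.61 ± 0.13 and 1.55 ± 0.13. NR4A3, an orphan nuclear receptor, was listed at 0 in untreated cells and at 0.299, 0.453 and 0.315 TPM in high calcium, and at 0.107, 0 and 0.0445 TPM in TGFb3. NR4A1 was at 0.593 to 0.797 TPM without treatment, 0.917 to 1.66 TPM with high calcium and 0.525 to 0.588 TPM with TGFb3. EGR3 was at 0.059 to 0.113, 0 to 0.0714 and 0.0617 to 0.199 TPM in the same order. CSF2 and EGR2 were listed at 0 in all untreated and high calcium samples and reached 0.845 and 0.239 TPM in TGFb3, and IL5 stayed at or under 0.596 TPM. TNF was at 0, 0.161 and 0 TPM in untreated cells, 0.424 to 1.08 TPM in high calcium and 0.582 to 1.03 TPM in TGFb3.

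Of 8 NFAT5 target genes of the osmotic response 6 were tested, with 2 higher, 2 lower and 2 not called in high calcium, and 2 higher and 4 lower in TGFb3. The medians were 0.13 and -0.63, beside 0.22 and -0.06 over all tested genes. Under the 3 other scalings the high calcium median was -0.099, -0.082 and -0.057, beside 0.0045, -0.038 and 0.052 over all tested genes. AKR1B1, the aldose reductase that makes sorbitol, rose from 119 ± 6.89 to 484 ± 16.8 TPM in high calcium (log2 2.02 ± 0.06) and to 162 ± 12 TPM in TGFb3 (log2 0.44 ± 0.06). SLC38A2, an amino acid transporter, rose by log2 0.58 and 0.22. The taurine transporter SLC6A6 went from 32.7 ± 0.942 TPM to 35.7 ± 1.88 TPM in high calcium (not called) and fell to 17.6 ± 0.76 TPM in TGFb3. The chaperone HSPA4L fell by 0.30 on the log2 scale in high calcium and by 1.35 in TGFb3. HSPA1B, a chaperone whose copy HSPA1A is nearly identical so that its reads are uncertain, fell by 0.46 on the log2 scale in TGFb3. In high calcium its log2 difference was -0.25 (limma adjusted p = 0.033, range 0.00068 to 0.11), a call lost without control 2 (0.076), control 3 (0.11), high calcium 1 (0.081) or high calcium 3 (0.089). NFAT5 was higher in both treatments, and these targets went in both directions. In high calcium against TGFb3 all 6 tested targets were called higher, beside 50.4% of all tested genes. After median ratio rescaling 4 were, beside 30% of all tested genes. A link between NFAT5 and these genes was not tested.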

How the data were processed

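RNA of 9 MCF10A samples was extracted with Trizol and sequenced as paired ends of 101 bp, per the labels' protocols. HISAT2 and hg38 are named in the submitters' processing notes. Software versions, the quantification program, the annotation release and strandedness: not given in the sources used here. TPM values of 58288 entries were deposited by the authors in a single table, each column summing to 1000000, so depth is unknown and no counting interval is given. All 9 columns were matched by label. The 1932 entries sharing 253 symbols were summed, which left 56609 symbols. Gene identifiers of the 10 genes match GENCODE release 29 in number and version, and coordinates (GRCh38, 1-based) are from it. Start-site windows are from RefSeq.

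Values were tested as log2(TPM + 1) with limma 3.58.1 in R 4.3.3, with a variance trend, all 9 samples, 6 residual degrees of freedom and Benjamini-Hochberg adjustment over 13968 symbols. The method was checked on simulated data with independent noise and no shift of scale between groups. That check therefore does not bear on the scaling. Ratios within a library have no test. Alternatives were 3 other scalings, 2 pseudocounts, 2 filters, no variance trend, a minimum difference, only the compared groups, a replicate block and each sample left out. Named pathway genes were up to 4 called members per list with the largest log2 differences in high calcium and up to 2 in TGFb3, with up to 2 not called. All genes of the NFAT target list under the filter were added outside that rule after their values were seen. Those of the NFAT5 target list were not. The 4 genes of the NFAT kinase list called lower in high calcium were also named outside that rule. Some genes of the lists are not reported here and were left out of their counts. The 10 genes and all lists were chosen with earlier results of these data known. Python 3.11.15, pandas 2.3.3 and matplotlib 3.10.9 made tables and figures.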

Additional observations from a re-analysis of the deposited data

How the results depend on the processing

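There were 20 alternatives. In TGFb3 against control the 3 other scalings left the counts of the 9 genes at 6 higher and 3 lower. In high calcium against control, median ratio rescaling left 3 of the 9 genes called higher and 2 lower, quantile normalisation 3 and 1, and leaving out mitochondrial genes 3 and 1. PPP3CA turned to -0.025 under median ratio rescaling. Under the 3 scalings in that order PPP3CB turned to -0.17, -0.12 and -0.13 and PPP3R1 to -0.22, -0.16 and -0.18. Between high calcium and TGFb3, 1 gene was called higher under each scaling, and 5 were called lower under the first and second. There PPP3CC turned to -0.23, -0.19 and -0.14, NFAT5 to -0.26, -0.24 and -0.18, and PPP3R1 to -0.07 and -0.015 under the first and second. A minimum log2 difference of 0.5 left 3 higher in high calcium, 3 higher and 0 lower in TGFb3, and 1 higher in high calcium against TGFb3. By construction that setting can only remove calls. Differences near 0 also changed sign when 1 sample was left out. For high calcium against control, PPP3R1 ranged from -0.0085 (without control 1) to 0.056 (without control 3) and was -0.0078 without control 2. NFATC3 ranged from -0.16 (without control 1) to 0.060 (without control 3) and was 0.0064 without control 2 and 0.032 without high calcium 2. For high calcium against TGFb3, NFAT5 ranged from -0.048 (without high calcium 1) to 0.069 (without high calcium 3) and was -0.0065 without TGFb3 3. The cause was not tested. With 1 sample left out, 4 to 6 of the 9 genes were called higher in high calcium, 6 higher and 2 to 3 lower in TGFb3, and 3 to 4 higher and 3 lower in high calcium against TGFb3.

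Over all tested genes in high calcium against control, 6438 higher and 2378 lower became 4210 and 4182 under median ratio rescaling, 3991 and 4464 under quantile normalisation, and 4054 and 1070 with the minimum difference, and lower calls became 3791 without mitochondrial genes. Between high calcium and TGFb3, 7038 and 2256 became 4183 and 4226, 4364 and 4181, and 4284 and 1235, and lower calls became 3468. In TGFb3 against control 3703 and 4623 became 2148 and 2487 with the minimum difference. For the calmodulin list, median ratio rescaling gave 3 higher and 2 lower in TGFb3, and 2 higher and 2 lower in high calcium.

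Samples with the same replicate number did not deviate together (correlations from -0.075 to -0.004). With 3 samples per group this cannot show whether samples of the same number were handled together. With a replicate block the 9 genes gave 6 higher and 0 lower in high calcium, 6 and 3 in TGFb3, and 4 and 3 in high calcium against TGFb3, and all genes gave 6258 and 2299, 3589 and 4455, and 6924 and 2194. Among the genes named, HSPA1B in high calcium lost its call under the block (limma adjusted p = 0.055).

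Depth is unknown, so the precision of genes near 0, such as RCAN2 and NFATC1, cannot be set from counts. With 3 samples a group, a difference that was not called is not shown to be absent.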
